A study of Arabidopsis thaliana with 12 samples.

Results

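The 9 genes described here encode the enzymes and the transporter of methionine chain elongation, the first stage of aliphatic glucosinolate synthesis in Arabidopsis. They were taken by name from the pathway: the aminotransferases BCAT4 and BCAT3, the methylthioalkylmalate synthases MAM1 and MAM3, the plastid transporter BAT5, the isopropylmalate isomerase subunits IIL1, IPMI SSU2 and IPMI SSU3, and the dehydrogenase IPMDH1. All 9 were present among the 27371 genes of the tables, and all 9 passed the minimum of a mean of 1 FPKM that left 16677 genes for testing. Levels are in FPKM, a count of sequenced fragments corrected for transcript length and for the number of fragments mapped in the library. The seedlings were 14 days old, grown whole on sugar-free plates at 23 °C in long days. They were either wild type (WT, Col-0) or linc1-1, a T-DNA insertion line in the Col-0 background that disrupts the lamin-like gene LINC1. Both genotypes were mock treated or sprayed with a suspension of Pst hrcC- at an OD600 of 0.002 and left for 24 hours. Pst hrcC- is a strain of Pseudomonas syringae pv. tomato that lacks a functional type III secretion system. Each of the 4 groups held 3 libraries, which the study describes as biological replicates, and linc1-1 was the only mutant line among them.

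Glucosinolates are sulfur-rich defence compounds of the cabbage family that release toxic products when tissue is damaged. In the aliphatic branch, methionine loses its amino group in the cytosol and the resulting 2-oxo acid enters the plastid. There a cycle of condensation, isomerization and oxidative decarboxylation adds a methylene group at each turn, by reactions that run parallel to leucine synthesis. The elongated product receives an amino group again and passes to the core pathway, where cytochromes P450 of the CYP79F family take over. The transcription factors MYB28, MYB29 and MYB76 are known activators of the branch.

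The state of the libraries touches every comparison with WT. LINC1 itself measured between 17.2 and 28.3 FPKM in the 6 WT libraries and between 2.09 and 3.76 FPKM in the 6 linc1-1 libraries. Both WT replicate 1 libraries stood apart from the other WT libraries. In a fit that weights each library by how closely it follows its group, they received weights of 0.186 (mock) and 0.172 (Pst hrcC-), against 0.702 to 2.34 for the other 10 libraries. The clock gene CCA1 was at 18.6 FPKM in WT Pst hrcC- replicate 1 and at 2.07 FPKM or less in the other 11 libraries. In a list of 9 clock genes, 3 were higher in that library than in both other treated WT libraries, and 6 were lower. In WT mock replicate 1, 7 of the 9 clock genes were higher than in both other WT mock libraries, and 2 were lower. WT mock replicate 1 exceeded both other WT mock libraries for 12 of 13 photosynthesis genes, beside 51.7% of tested genes. After Pst hrcC- the count for WT replicate 1 was 11 of 13, beside 38.8% of tested genes. The summed level of the 13 photosynthesis genes was 58199 FPKM in WT mock replicate 1, and 33124 and 40124 FPKM in replicates 2 and 3. After Pst hrcC- it was 56555 FPKM in WT replicate 1, and 37240 and 27006 FPKM in replicates 2 and 3. Over the linc1-1 libraries the sum spanned 32155 to 56667 FPKM in mock and 31090 to 58834 FPKM after Pst hrcC-. The highest linc1-1 library was just below WT replicate 1 in mock and above it after Pst hrcC-, and LHCB1.3 was listed at 0 in 1 library of each linc1-1 group. The 12 root genes summed to between 27.0 and 78.7 FPKM over all libraries. The part of these differences in the results was not tested. The comparisons below are given with all 12 libraries, and their counts again without the 2 WT replicate 1 libraries.

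Chain elongation opens with BCAT4 (AT3G19710), the cytosolic aminotransferase that converts methionine to its 2-oxo acid. The gene lies on chromosome 3 from 6846969 to 6849582, on the minus strand, in the TAIR10.1 assembly, and has 9 exons. BCAT4 measured 5.99, 1.09 and 0.646 FPKM in WT mock replicates 1, 2 and 3, and 15.0, 7.15 and 4.76 FPKM in the WT replicates after Pst hrcC-. In linc1-1 it measured 2.07, 1.96 and 3.61 FPKM in mock, and 24.8, 33.0 and 24.9 FPKM after Pst hrcC-. The 3 treated linc1-1 libraries were the highest of all 12 and lay above every treated WT library, while the mock groups overlapped. BCAT4 rose in treated linc1-1 (log2 fold change 3.03, SE 0.50, adjusted p = 0.0224, limma's moderated test with Benjamini-Hochberg adjustment over all tested genes). All log2 fold changes here are on the log2(FPKM + 1) scale, which understates the change of low genes. In WT its value was 1.66 with an SE of 0.50 and an adjusted p of 0.535. BCAT4 and its neighbour IKU2 overlap by 307 bases on opposite strands, and IKU2 was at 0.00835 FPKM or less in every library.

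BCAT3 (AT3G49680), a plastid aminotransferase that acts both in leucine synthesis and in the last step of chain elongation, lies on chromosome 3 from 18422542 to 18425758 on the plus strand and has 10 exons. BCAT3 measured 12.4, 3.71 and 4.08 FPKM in WT mock and 9.48, 3.02 and 4.33 FPKM in WT after Pst hrcC-. The linc1-1 values were 5.84, 3.95 and 7.94 FPKM in mock and 6.57, 10.9 and 8.72 FPKM after Pst hrcC-. Its highest library was WT mock replicate 1, and every pair of groups next to each other in the order of means overlapped. Its log2 fold change was -0.17 in WT and 0.51 in linc1-1 (SE 0.44 for both), with an adjusted p of 1 in each by limma. BCAT3 was the sole member for which the treated and mock linc1-1 libraries overlapped.

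MAM1 (AT5G23010) and MAM3 (AT5G23020) encode the synthases that condense the 2-oxo acid with acetyl-CoA, the committed step, and the length of the chain depends on them. They are neighbours on the plus strand of chromosome 5. MAM1 lies from 7703041 to 7706973 and MAM3, listed in RefSeq as IMS2, from 7718118 to 7721866. Between them are 11144 bases with 0 annotated genes. Both have 10 exons and their coding sequences are identical at 84.7% of 1505 aligned bases. None of the 1808 stretches of 50 bases in the MAM1 transcript, and none of the 1780 in MAM3, occurs elsewhere in the nuclear genome.

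Despite this likeness, the levels of the pair ran apart. MAM1 measured 17.0, 6.69 and 7.20 FPKM in WT mock and 8.30, 20.1 and 21.0 FPKM in WT after Pst hrcC-. Levels in linc1-1 were 3.51, 4.53 and 5.96 FPKM in mock and 16.0, 28.1 and 32.0 FPKM after Pst hrcC-. MAM1 was the only member for which every linc1-1 mock library lay below every WT mock library, 1 of 9, as for 8.84% of tested genes. It was also the only member for which WT Pst hrcC- replicate 1 was lower than replicates 2 and 3. MAM1 rose in treated linc1-1 (log2 fold change 2.18, SE 0.42, adjusted p = 0.0474, limma), and its log2 fold change in WT was 0.64 (SE 0.42, adjusted p = 0.993). Without the WT replicate 1 libraries the WT value was 1.44 and was still not called.

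MAM3 measured 5.30, 0.359 and 0.418 FPKM in WT mock and 7.51, 0.310 and 0.886 FPKM in WT after Pst hrcC-. In linc1-1 the levels were 2.28, 2.56 and 3.31 FPKM in mock and 5.75, 6.99 and 6.002 FPKM after Pst hrcC-. WT replicates 2 and 3 were below 1 FPKM under both treatments, whereas WT replicate 1 lay above the 3 linc1-1 libraries of the same treatment. MAM3 had a log2 fold change of 0.97 in linc1-1 (SE 0.68, adjusted p = 1) and 0.26 in WT (SE 0.68, adjusted p = 1), neither of them called by limma. Without the WT replicate 1 libraries the value in linc1-1 was again 0.97, with an SE of 0.17, and MAM3 was called higher (adjusted p = 0.0293, limma).

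The ratio of MAM1 to MAM3 within a library does not depend on how libraries are scaled. It was 3.22, 18.7 and 17.2 in WT mock and 1.11, 64.8 and 23.7 in WT after Pst hrcC-. In linc1-1 it was 1.54, 1.77 and 1.80 in mock and 2.78, 4.02 and 5.33 after Pst hrcC-. WT replicates 2 and 3 were thus above all linc1-1 libraries. WT replicate 1 was above every linc1-1 library of its treatment in mock (3.22) and below every one after Pst hrcC- (1.11). Of the summed FPKM of the 9 genes, MAM1 took on average 20.8% in WT mock and 22.2% in WT after Pst hrcC-. In linc1-1 its mean shares were 8.83% and 11.04%. The WT libraries differed: the share was 13.3%, 22.3% and 26.7% in WT mock replicates 1, 2 and 3. After Pst hrcC- it was 4.62% in WT replicate 1, below every linc1-1 library, and 30.3% and 31.5% in replicates 2 and 3. The ratio of MAM1 to MAM3 was chosen after the values were seen and is given as a description.

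**Figure D1:**
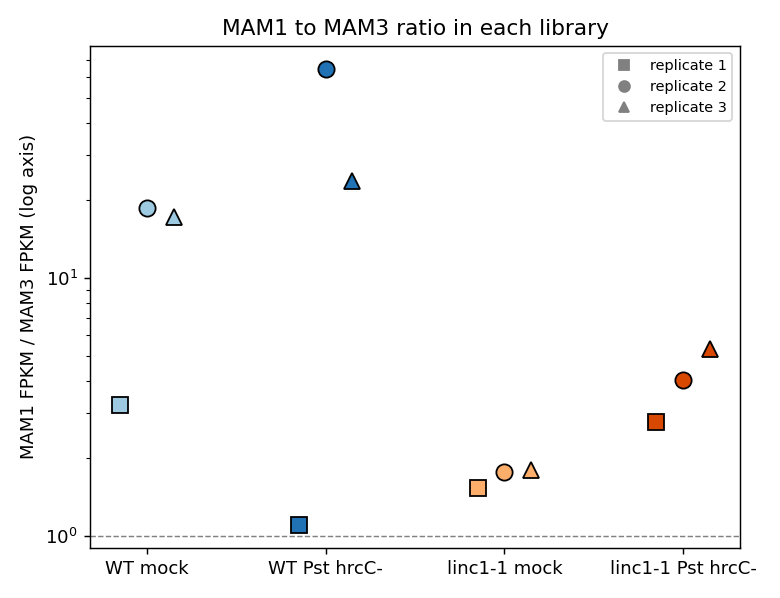
Ratio of MAM1 to MAM3 FPKM (log axis) in each of the 12 libraries by group, with a marker shape for each replicate number. WT replicates 2 and 3 lie between 17.2 and 64.8, and all linc1-1 libraries and both WT replicate 1 libraries lie between 1.11 and 5.33. Within mock, WT replicate 1 (3.22) lies above every linc1-1 library, and after Pst hrcC- (1.11) it lies below every one.

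BAT5 (AT4G12030), the plastid envelope transporter that carries the 2-oxo acids between cytosol and plastid, lies on chromosome 4 from 7210807 to 7213376 on the plus strand and has 7 exons. BAT5 measured 4.57, 0.676 and 1.02 FPKM in WT mock and 7.81, 2.82 and 4.49 FPKM in WT after Pst hrcC-. In linc1-1 it measured 0.915, 2.27 and 3.58 FPKM in mock and 8.06, 7.61 and 23.1 FPKM after Pst hrcC-. All treated linc1-1 libraries were above all linc1-1 mock libraries, and 1 of them, replicate 3, was far above the other 2. The log2 fold change of BAT5 was 2.01 in linc1-1 (SE 0.54, adjusted p = 0.259) and 1.098 in WT (SE 0.54, adjusted p = 0.993), neither called by limma. It fell to 1.53 in linc1-1 when treated replicate 3 was left out.

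The isomerase moves the hydroxyl group of the condensation product and is built from a large and a small subunit. IIL1 (AT4G13430), the large subunit that leucine synthesis also uses, lies on chromosome 4 from 7803863 to 7807984 on the minus strand and has 15 exons. IIL1 measured 13.1, 8.18 and 6.66 FPKM in WT mock and 13.3, 10.2 and 7.06 FPKM in WT after Pst hrcC-. The linc1-1 values were 10.8, 9.91 and 8.63 FPKM in mock and 14.7, 23.3 and 15.0 FPKM after Pst hrcC-. Its range over the 12 libraries was 3.49-fold, the narrowest of the 9 genes, yet the 3 treated linc1-1 libraries lay above all other libraries. The log2 fold change was 0.77 in linc1-1 (SE 0.28, adjusted p = 0.758) and 0.12 in WT (SE 0.28, adjusted p = 1) by limma.

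IPMI SSU2 (AT2G43100) and IPMI SSU3 (AT3G58990) are small subunits known for their part in glucosinolate synthesis, and each is a gene of 1 exon. IPMI SSU2 lies on chromosome 2 from 17920647 to 17921844 on the plus strand and IPMI SSU3 on chromosome 3 from 21797058 to 21798303 on the minus strand. Their coding sequences are identical at 75.7% of 736 aligned bases. IPMI SSU2 measured 43.9, 5.19 and 3.69 FPKM in WT mock and 64.3, 9.45 and 10.5 FPKM in WT after Pst hrcC-. Levels in linc1-1 were 9.57, 13.4 and 18.9 FPKM in mock and 51.9, 60.1 and 60.01 FPKM after Pst hrcC-. The treated WT replicate 1 library was the highest of all, and the treated linc1-1 libraries lay above every library but that one.

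IPMI SSU3 measured 13.1, 2.44 and 1.92 FPKM in WT mock and 41.3, 9.30 and 11.3 FPKM in WT after Pst hrcC-. In linc1-1 the levels were 6.33, 7.19 and 9.41 FPKM in mock and 40.6, 48.4 and 59.1 FPKM after Pst hrcC-. The treated linc1-1 libraries were close together and above all linc1-1 mock libraries, and the treated WT replicate 1 library reached into their range. The log2 fold changes in linc1-1 were 2.01 for IPMI SSU2 (SE 0.83, adjusted p = 1) and 2.54 for IPMI SSU3 (SE 0.61, adjusted p = 0.157), not called by limma. In WT the value of IPMI SSU2 was 0.86 (SE 0.83, adjusted p = 0.993, limma). That of IPMI SSU3 in WT was 1.75 (SE 0.61, adjusted p = 0.749, limma), and neither was called. With the responses of both genotypes averaged, IPMI SSU3 was called higher after Pst hrcC- (log2 fold change 2.14, SE 0.43, adjusted p = 0.0415). This call was lost in 10 of 23 alternative settings of the fit. With single libraries left out, its adjusted p reached 0.129 by limma. Without the WT replicate 1 libraries IPMI SSU3 was also called in WT alone, at a log2 fold change of 1.83.

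The upstream windows of the small subunit genes are shown because the genes lie on different chromosomes and share runs of bases that are rarer elsewhere than the longest run shared by any other pair among 8 of the 9 genes. Sequences cover the 250 bases before the annotated start, 5′ to 3′ on the strand of the gene, from the RefSeq TAIR10.1 assembly. Capitals mark runs of 10 or more bases that both windows hold. The run of 10 bases occurs on either strand in 6 of the same windows of 16517 tested protein-coding genes and the run of 11 bases in 27, counting these genes. Both runs stand in the same order, at 76 and 49 bases before the start in IPMI SSU2 and at 114 and 87 bases in IPMI SSU3. The windows are chr2:17920397-17920646 on the plus strand and chr3:21798304-21798553 on the minus strand.
IPMI SSU2: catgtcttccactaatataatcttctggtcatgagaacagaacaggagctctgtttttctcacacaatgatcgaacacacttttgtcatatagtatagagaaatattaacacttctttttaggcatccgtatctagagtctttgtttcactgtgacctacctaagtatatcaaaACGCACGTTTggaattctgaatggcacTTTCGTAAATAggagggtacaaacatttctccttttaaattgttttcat
IPMI SSU3: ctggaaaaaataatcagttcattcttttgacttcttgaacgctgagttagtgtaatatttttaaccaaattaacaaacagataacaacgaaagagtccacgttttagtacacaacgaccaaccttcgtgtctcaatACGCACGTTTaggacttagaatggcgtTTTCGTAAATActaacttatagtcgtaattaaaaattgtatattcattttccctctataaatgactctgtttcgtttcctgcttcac

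A search of the 250 bases before 8 of the 9 genes used 5 motifs on both strands: the G-box CACGTG, its relatives CATGTG and AACGTG, the MYB-type motif ACCNAAC and the evening element AAAATATCT. AACGTG was added after the sequences were seen, since it lies, reversed, inside the shared run of 10 bases. It was found in 2 of the 8 windows, those of IPMI SSU2 and IPMI SSU3, and in 7.43% of the windows of tested genes. CACGTG was found in 1 of 8, that of IIL1, at 38 bases before the start, and in 7.27% of all windows. The other 3 motifs had 0 matches in the 8 windows, against 11.1% of all windows for CATGTG, 15.3% for ACCNAAC and 2.57% for AAAATATCT. The IIL1 window, chr4:7807985-7808234 on the minus strand, is printed with its CACGTG in capitals.
IIL1: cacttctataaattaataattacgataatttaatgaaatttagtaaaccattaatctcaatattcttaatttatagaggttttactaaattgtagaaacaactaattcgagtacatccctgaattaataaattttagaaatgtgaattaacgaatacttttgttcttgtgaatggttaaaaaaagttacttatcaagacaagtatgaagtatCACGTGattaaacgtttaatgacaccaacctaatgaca

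The last enzyme of the cycle is IPMDH1 (AT5G14200), the dehydrogenase that oxidizes and decarboxylates the isomer. It lies on chromosome 5 from 4576123 to 4578402 on the plus strand and has 9 exons. IPMDH1 measured 12.5, 1.68 and 1.36 FPKM in WT mock and 12.8, 3.94 and 2.31 FPKM in WT after Pst hrcC-. In linc1-1 it measured 2.28, 2.89 and 4.17 FPKM in mock and 15.9, 27.1 and 16.7 FPKM after Pst hrcC-. The 3 treated linc1-1 libraries were the highest of all, and WT replicate 1 was about as high with as without bacteria. The log2 fold change was 2.33 in linc1-1 (SE 0.65, adjusted p = 0.301) and 0.47 in WT (SE 0.65, adjusted p = 0.999), not called by limma. IPMDH1 is 95.1% identical in coding sequence to IPMDH3, which serves leucine synthesis, and 5.29% of its 50-base stretches occur in IPMDH3, so reads of the pair may have been divided between them. IPMDH3 measured 7.53, 5.35 and 8.59 FPKM in linc1-1 mock and 6.04, 12.6 and 5.57 FPKM after Pst hrcC-, with overlapping groups. IPMDH1 was the only 1 of the 9 genes with 50-base stretches found elsewhere. It also overlaps AT5G14210, on the opposite strand, by 25 bases, and that gene measured between 5.70 and 11.5 FPKM.

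**Figure D2:**
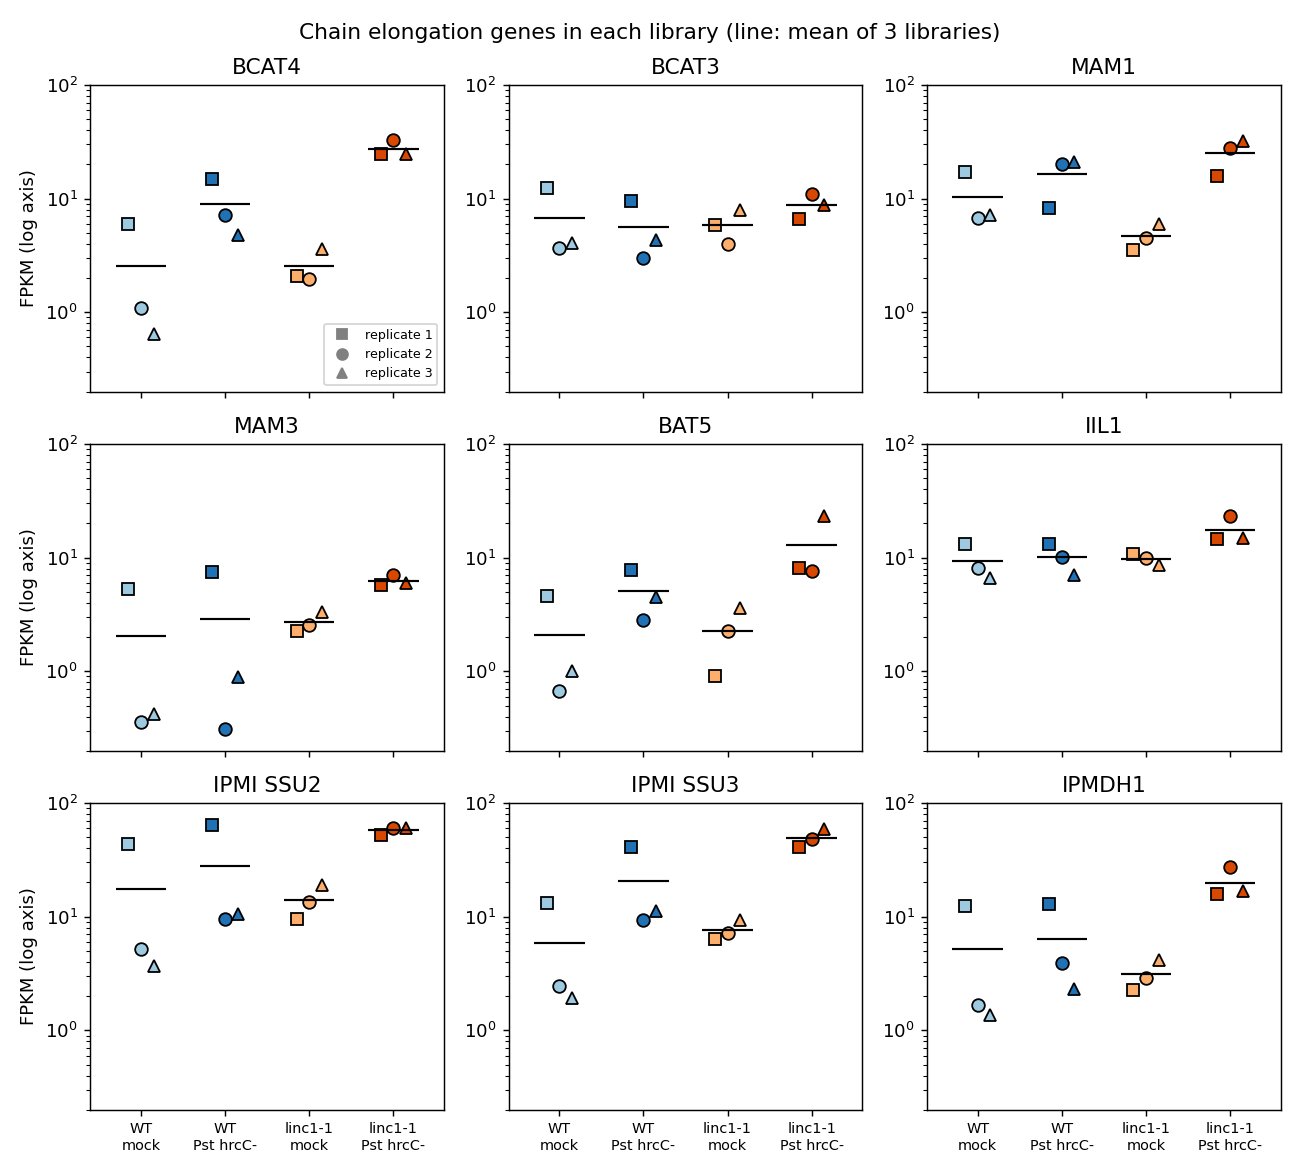
FPKM (log axis) of each of the 9 genes in each library, by group. Marker shapes are replicate numbers and lines are means of 3 libraries. WT mock replicate 1 is the highest mock library for all 9 genes, and the treated linc1-1 libraries are above the linc1-1 mock libraries for all but BCAT3.

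The first question of the design was how the genes responded to Pst hrcC- in each genotype. In linc1-1 the log2 fold change was above 0 for all 9, as for 55.3% of tested genes, with a median of 2.01 beside 0.02 over all of them. Of the 9 genes 2, BCAT4 and MAM1, were called higher (adjusted p under 0.05 and a fold above 1.5), where 0.606% of tested genes were called higher. At an unadjusted p under 0.05 and the same fold the count was 7 of 9, beside 2.79% of tested genes. For 8 of 9 genes every treated linc1-1 library was above every linc1-1 mock library, as for 7.45% of tested genes. The calls of BCAT4 and MAM1 were sensitive, since leaving out any 1 linc1-1 library left 0 of 9 called, although both kept log2 fold changes of at least 1.99. With WT replicate 1 left out, 6 of 9 were called (BCAT4, MAM1, MAM3, IPMI SSU2, IPMI SSU3 and IPMDH1) with the same fold changes, where 1.26% of genes were called higher. The linc1-1 response compares no WT library, so only the spread that the fit pools over all groups had changed.

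In WT 8 of the 9 log2 fold changes were above 0, the exception being BCAT3, as for 34.0% of tested genes, and the median was 0.64 beside -0.09. None of the 9 was called by limma, where 0.18% of tested genes were called higher, and 2 of 9, BCAT4 and IPMI SSU3, had an unadjusted p under 0.05 at that fold, as did 2.16% of tested genes. For 0 of 9 genes was every treated WT library above every WT mock library, as for 2.90% of tested genes. With WT replicate 1 left out, replicates 2 and 3 after Pst hrcC- were above both mock replicates for 6 of 9 genes, as for 13.3% of tested genes. BCAT4 (log2 fold change 1.89) and IPMI SSU3 (1.83) were then called, 2 of 9 where 0.168% of genes were called higher. With the genotypes averaged, BCAT4 (2.34, adjusted p = 0.00865) and IPMI SSU3 were called among 1.06% of genes called higher, and MAM1 missed the threshold (1.41, adjusted p = 0.0510). Leaving out WT replicate 1, this average gave 5 of 9 calls, where 1.43% of genes were called higher.

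**Figure D3:**
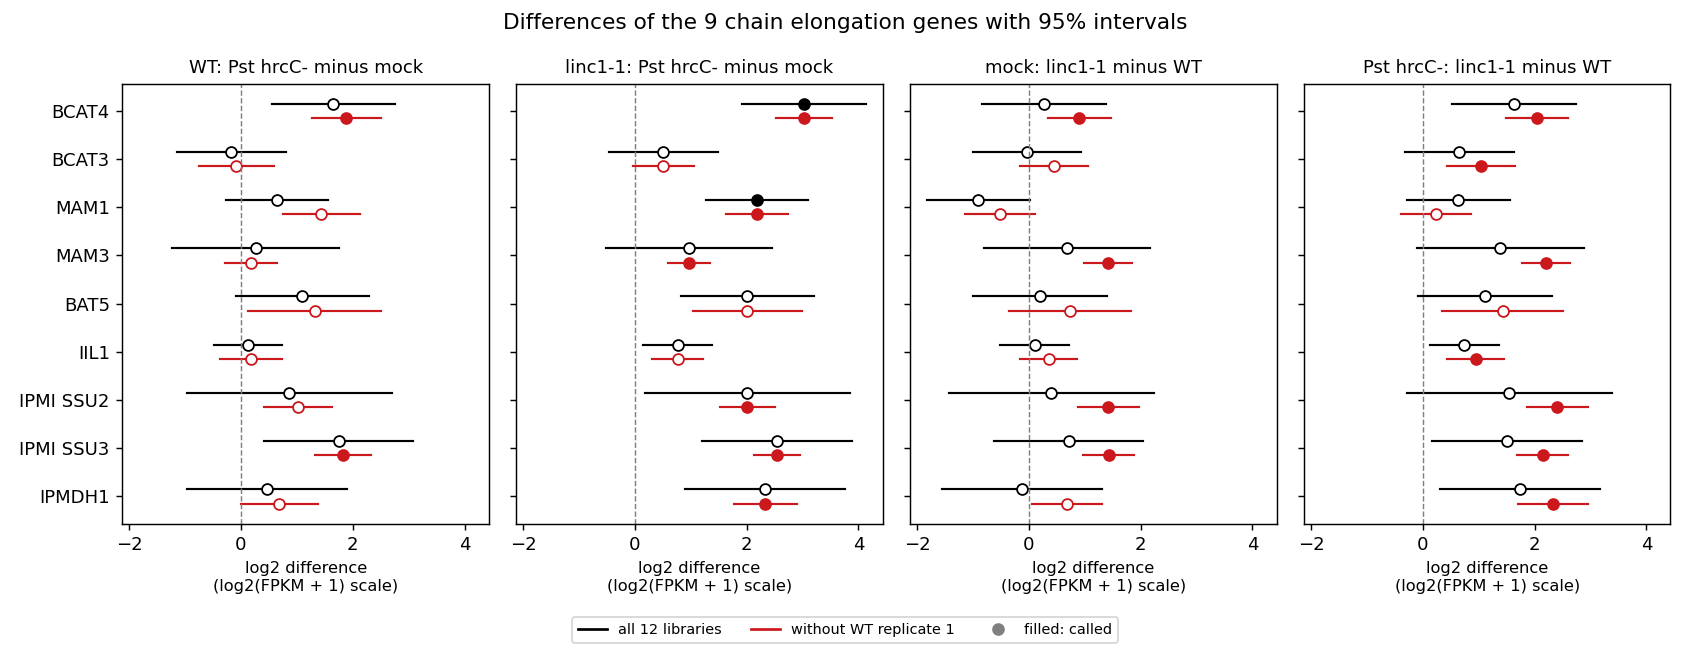
Log2 differences of the 9 genes on the log2(FPKM + 1) scale in 4 comparisons, with 95% intervals from limma. Black is the fit of all 12 libraries and red the fit without the 2 WT replicate 1 libraries, and filled points were called. With 12 libraries BCAT4 and MAM1 in linc1-1 are filled, and without WT replicate 1 there are 7 filled points after Pst hrcC-.

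The next question was how linc1-1 differed from WT. After Pst hrcC- all 9 genes had higher fitted levels in linc1-1, as had 66.0% of tested genes, with a median log2 fold change of 1.39 beside 0.14 over all tested genes and a range from 0.64 (MAM1) to 1.74 (IPMDH1). None of the 9 was called, where 0.174% of tested genes were called higher, and 4 of 9 (BCAT4, IIL1, IPMI SSU3 and IPMDH1) had an unadjusted p under 0.05 at that fold, as did 6.61% of tested genes. BCAT4 came nearest, at 1.64 on the log2 scale with an SE of 0.50 (adjusted p = 0.173, limma). Every treated linc1-1 library lay above every treated WT library for BCAT4, IIL1 and IPMDH1, 3 of 9, as for 14.9% of tested genes. When WT replicate 1 was left out, 7 of 9 were called higher in linc1-1, all but MAM1 and BAT5, where 11.4% of tested genes were called higher. IPMI SSU2 then had a log2 fold change of 2.41 and MAM1 0.23. In mean FPKM, treated linc1-1 was at 2.15-fold the level of all 3 treated WT libraries for MAM3, 3.13-fold for IPMDH1 and 2.04-fold for IPMI SSU2. Against WT replicates 2 and 3 alone these ratios were 10.4, 6.37 and 5.76.

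In mock seedlings the median log2 fold change between genotypes was 0.20, beside 0.01 over all genes, with 6 of the 9 above 0 and 3 below, where 50.9% of tested genes were above 0. None of the 9 was called higher or lower (0.018% of tested genes were called in each direction), and 0 of 9 were higher at an unadjusted p under 0.05, beside 1.80% of tested genes. MAM1 had the largest difference, -0.90 (95% interval -1.82 to 0.01, adjusted p = 0.637). WT mock replicate 1 exceeded all other mock libraries for 9 of 9 genes, as for 33.1% of tested genes. Without WT replicate 1, BCAT4, MAM3, IPMI SSU2 and IPMI SSU3 were called higher in linc1-1 mock, 4 of 9 where 6.03% of tested genes were called higher. MAM3 then had a log2 fold change of 1.41, and its mean FPKM was 6.99-fold that of WT mock replicates 2 and 3, but 1.34-fold that of all 3 WT mock libraries. MAM1 stayed at -0.51, uncalled. With treatments averaged, 0 of 9 were called where 0.845% of tested genes were called higher, 2 of 9 were higher at an unadjusted p under 0.05 (4.13% of genes), and without WT replicate 1 all but MAM1 were called, 8 of 9 where 12.3% of genes were called higher.

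Whether the response to Pst hrcC- itself differed between genotypes was tested as the difference of the responses. All 9 differences were above 0, that is, larger in linc1-1, as for 67.1% of tested genes, with a median of 0.91 beside 0.12. None of the 9 and 0% of tested genes were called, and 1 of 9, MAM1 (1.54, 95% interval 0.24 to 2.84), had an unadjusted p under 0.05 at that fold, as had 1.38% of tested genes. The largest difference was that of IPMDH1, 1.86 (95% interval -0.16 to 3.88, adjusted p = 1.00). Without the WT replicate 1 libraries all 9 were again above 0, from 0.59 to 1.65, as for 59.3% of tested genes, and 0 were called. The 4 comparisons of single groups share libraries and are not independent of each other.

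Among themselves, the genes followed each other closely except for MAM1. Over the 12 libraries, Pearson's r between each gene and the mean of the other 8 was between 0.755 and 0.979 for 8 genes and 0.59 for MAM1, as a description over libraries that share group and scaling. Without the WT replicate 1 libraries the r of MAM1 was 0.659. The widest range was that of BCAT4, 51.2-fold between its lowest library, WT mock replicate 3, and its highest, linc1-1 Pst hrcC- replicate 2. The ratio of IPMI SSU2 to IPMI SSU3, also chosen after the values were seen, was 3.34, 2.12 and 1.92 in WT mock and 1.56, 1.02 and 0.928 in WT after Pst hrcC-. In linc1-1 the ratio was 1.51, 1.86 and 2.01 in mock and 1.28, 1.24 and 1.02 after Pst hrcC-. In both genotypes every treated library was below every mock library of that genotype.

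The sum of the 9 genes was 128, 30.01 and 27.0 FPKM in WT mock and 180, 66.2 and 66.6 FPKM in WT after Pst hrcC-. In linc1-1 it was 43.5, 48.6 and 65.5 FPKM in mock and 184, 245 and 245 FPKM after Pst hrcC-. The treated linc1-1 seedlings thus held the 3 highest sums. The lowest of them, 184 FPKM, was just above the 180 FPKM of WT Pst hrcC- replicate 1. In whole seedlings, fewer cells that make these transcripts and less RNA in each such cell cannot be told apart.

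The 5 genes whose pattern over the 12 libraries was most like the mean of the 9, among 8771 candidates with a mean of at least 5 FPKM, were CYP83A1, TLL1, APR1, DJ1F and AT4G27560. Their Pearson's r was 0.969, 0.961, 0.960, 0.959 and 0.952. CYP83A1 encodes the cytochrome P450 that follows CYP79F in the aliphatic core pathway, TLL1 a lipase-like protein and APR1 an enzyme of sulfate reduction. CYP83A1 measured 54.2, 7.57 and 6.57 FPKM in WT mock and 94.4, 111 and 119 FPKM in treated linc1-1, and 77.5, 30.3 and 35.2 FPKM in treated WT and 14.2, 21.1 and 21.9 FPKM in linc1-1 mock. WT replicate 1 was the highest WT library there as well.

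The genes of the later steps were counted from a list of the aliphatic core and side chain pathway, of which 16 of 17 genes in the tables were tested. In linc1-1 after Pst hrcC-, 5 of 16 were called higher, beside 0.606% of tested genes, and 16 of 16 had log2 fold changes above 0, beside 55.3%, with a median of 1.66 beside 0.02. With WT replicate 1 left out, 13 of 16 were called, beside 1.26% of tested genes. The named ones were CYP79F1 (3.92, adjusted p = 0.0196), which accepts the elongated methionine, GSTF11 (2.72, adjusted p = 0.00223), FMO GS-OX1 (1.80, adjusted p = 0.00663), which oxidizes the side chain, and the sulfotransferase SOT18 (1.67, adjusted p = 0.0224), all by limma. In WT 0 of 16 were called by limma, beside 0.18% of tested genes, and 9 of 16 were higher at an unadjusted p under 0.05 and that fold, beside 2.16%. With WT replicate 1 left out, 2 of 16 were called in WT, beside 0.168% of tested genes. Between genotypes after Pst hrcC-, 1 of 16 was called higher with all 12 libraries, GSTF11 at 2.25 (adjusted p = 0.0123, limma), beside 0.174% of tested genes, and 11 of 16 without WT replicate 1, beside 11.4%. GSTF11 measured 5.06, 3.08 and 2.59 FPKM in treated WT and 18.4, 19.4 and 23.4 FPKM in treated linc1-1, and these groups did not overlap.

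Of 10 genes of the leucine branch and the other aminotransferases, 7 were tested. With all 12 libraries 0 of 7 were called in any of the 7 comparisons by limma, and 0 of 7 had an unadjusted p under 0.05 at that fold, with medians between -0.09 and 0.20. Over all tested genes the share called was between 0% and 2.09% in these comparisons, so 0 of 7 does not set the list apart. For 0 of 10 genes were the treated linc1-1 libraries all above the linc1-1 mock libraries, as for 7.45% of tested genes. IPMI SSU1, the small subunit of leucine synthesis, measured 82.6, 86.4 and 81.4 FPKM in linc1-1 mock and 77.7, 88.6 and 71.6 FPKM after Pst hrcC-. BCAT2, a relative of BCAT3, measured 89.0 and 95.8 FPKM in WT mock replicates 2 and 3 but 1.19 FPKM in replicate 1, and 8.21 to 42.0 FPKM in linc1-1 mock. Without the WT replicate 1 libraries, 1 of 7 was called lower in linc1-1 mock, BCAT2 (log2 fold change -2.02), beside 3.82% of tested genes. After Pst hrcC- 2 of 7 were called lower, BCAT2 (-2.66) and IPMS1 (-0.61), the synthase that opens leucine synthesis, beside 6.31% of tested genes, and 0 of 7 were called higher in either treatment.

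**Figure D4:**
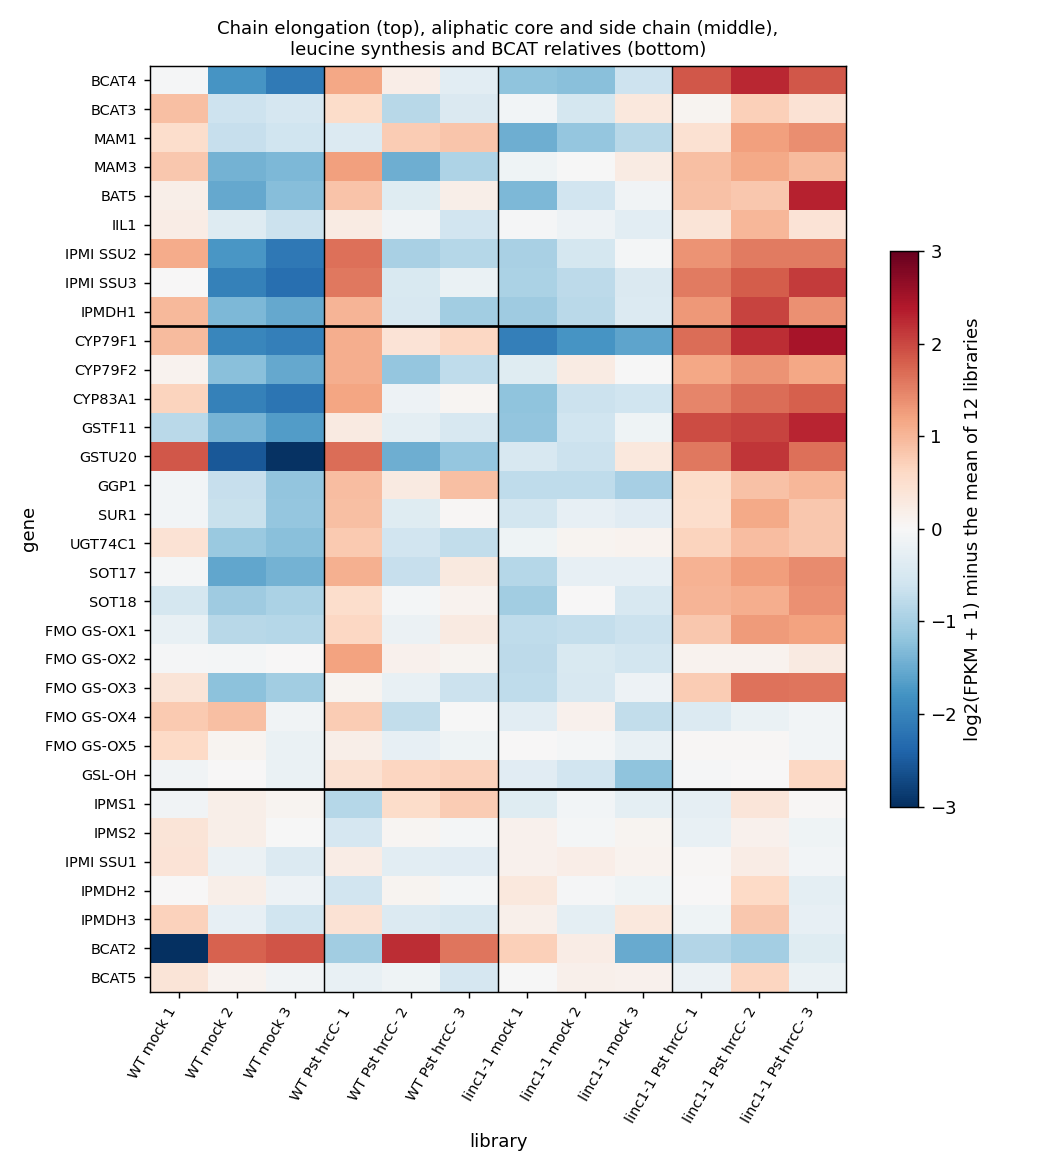
log2(FPKM + 1) minus its mean over the 12 libraries for the tested genes of 3 lists (rows) in each library (columns). Most of the 9 chain elongation genes and most aliphatic core genes are high in treated linc1-1 and in the WT replicate 1 libraries. MAM1 is not high in WT Pst hrcC- replicate 1, at 8.30 FPKM. In the leucine list BCAT2 is low in the WT replicate 1 libraries, at 1.19 FPKM in mock and 11.8 FPKM after Pst hrcC-.

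Among the regulators, MYB28 was called higher in linc1-1 with treatments averaged (log2 fold change 1.15, adjusted p = 0.0127, limma). It measured 10.15, 6.50 and 7.04 FPKM in WT mock, 14.3, 17.8 and 20.5 FPKM in linc1-1 mock, 15.6, 8.21 and 8.34 FPKM in treated WT and 22.6, 28.6 and 25.7 FPKM in treated linc1-1. The linc1-1 libraries lay above the WT libraries within each treatment, WT replicate 1 included. MYC2, a transcription factor of jasmonate signalling, was called higher after Pst hrcC- with genotypes averaged (2.17, adjusted p = 0.0111). Of 6 tested regulators, 1 was called in each of these averages with all 12 libraries, beside 0.845% and 1.06% of tested genes called higher. Between genotypes with treatments averaged, 4 of the 6 log2 fold changes were above 0 and 2 below. Their median was 0.11, beside 0.08 over all tested genes. Without WT replicate 1, 2 of 6 were called higher and 1 lower between genotypes after Pst hrcC-, beside 11.4% and 6.31%. Of 10 tested indole glucosinolate genes, 1 was called higher in linc1-1 after Pst hrcC-, CYP79B3 (1.65, adjusted p = 0.0174), beside 0.606% of tested genes, and 4 were with genotypes averaged, beside 1.06%. With WT replicate 1 left out the counts were 5 of 10 and 6 of 10, beside 1.26% and 1.43%. In the list of methionine supply, 0 of 6 genes were called in any of the 7 comparisons with all 12 libraries. Between 0% and 2.09% of tested genes were called in these comparisons, so 0 of 6 does not set the list apart. The largest differences there after Pst hrcC- were those of MGL (-1.22) and MS2 (1.02). Without WT replicate 1, 4 of the 6 were called higher in linc1-1 after Pst hrcC-, beside 11.4% of tested genes, and 1, MGL (-2.10), was called lower, beside 6.31%. In mock MS2 (1.24) was then called higher and MGL (-2.78) lower, beside 6.03% and 3.82%.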

How the data were processed

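mRNA of whole seedlings was sequenced in 12 libraries, 3 for each of 4 groups. The authors deposited FPKM values in 2 tables, 1 for each genotype. The submitters' processing notes name FastQC, TopHat2 2.1.1 and Cufflinks 2.2.1 with TAIR10, and the study's methods give other versions of the last pair. Whether both tables were scaled together, and whether the strand of the stranded libraries was used, is not given in the sources used here. The FPKM of all genes summed to 904687 in WT Pst hrcC- replicate 3, the lowest, and to 7.04e+06 in linc1-1 mock replicate 1, the highest. Size factors, which compare libraries by their median gene, ran from 0.883 to 1.16. Read counts were not used here, so the depth behind each FPKM value is unknown and no counting interval is given.

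Testing used limma 3.58.1 in R 4.3.3, in place of the test the study ran on reads, and took in only genes whose FPKM averaged 1 or more across libraries. The fit took log2(FPKM + 1), all 4 groups and a variance trend, with Benjamini-Hochberg adjustment over all tested genes. Calls needed both an adjusted p under 0.05 and a change of more than 1.5-fold. There were 7 comparisons: the response in each genotype, the genotypes within each treatment, the difference of the responses, and both averages. The test was tested on simulated data with independent noise for each gene. Those data held no library that stands apart, so they cannot show how WT replicate 1 affects the calls. Sequences and positions are from RefSeq TAIR10.1, read with Python 3.11.15 and Biopython 1.88. The upstream sequence of 1 of the 9 genes is not reported here. The members and lists were chosen with earlier results of these data known. Named beside the 9 were LINC1, at most 4 called genes of a list in each comparison (largest change first), at most 2 of an uncalled list, and the 5 genes most like the 9. CCA1, LHCB1.3, IPMI SSU1, IPMDH3, IKU2, AT5G14210, and BCAT2 and IPMS1 without WT replicate 1 were added after their values were seen. Alternatives were other pseudocounts and minimums, scalings, array weights, a replicate block and left-out libraries.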

Additional observations from a re-analysis of the deposited data

How the results depend on the processing

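With all 12 libraries 2 of 9 genes were called in the linc1-1 response, 2 of 9 in the response averaged over genotypes and 0 of 9 in the other comparisons. In the linc1-1 response a pseudocount of 0.1 FPKM gave 1 (BCAT4 lost), and 5 FPKM gave 1 (MAM1 lost). The count was 0 without a minimum FPKM and 6 in a fit of the compared groups alone. The shares of tested genes called higher were 0.57%, 0.444%, 0.304% and 0.983% in that order. Without a minimum the averaged response gave 1, beside 0.565% of tested genes. Array weights gave 1 in the WT response, 6 in the linc1-1 response, 3 between genotypes in mock, 5 after Pst hrcC-, 6 with treatments averaged and 6 with genotypes averaged, all higher, where 0.294%, 1.58%, 6.73%, 5.32%, 10.2% and 1.69% of tested genes were called higher. Leaving out both WT replicate 1 libraries, chosen after seeing the data, gave 2, 6, 4, 7, 8 and 5 in the same order, and 2, 6, 3, 7, 7 and 5 with size-factor scaling added. The difference of the responses gave 0 calls in each of these settings that could be fitted. Leaving out WT libraries alters the linc1-1 response only through the spread pooled over all groups. The causes of these shifts were otherwise not tested.

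Of 18 correlations between same-numbered libraries, 4 were above 0.1 (range -0.21 to 0.45). The highest was that between the WT replicate 1 libraries. Correlations between libraries of different numbers ranged from -0.42 to 0.35. These ranges overlap, so they do not decide whether same-numbered libraries belong together. With the replicate block 1 of 9 was called in the linc1-1 response, beside 0.558% of tested genes called higher, and no other count changed.

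Leaving out single libraries gave between 0 and 3 calls in the linc1-1 response and between 1 and 5 in the averaged response. The shares of tested genes called higher ran from 0.222% to 0.738% and from 0.684% to 1.15%. Between genotypes after Pst hrcC- the calls were 0 to 1, beside 0.018% to 1.1% of tested genes. With treatments averaged they were 0 to 3, beside 0.186% to 4.64%. In mock the genotype difference of BCAT3 turned to 0.26 with array weights, 0.46 without both WT replicate 1 libraries and 0.39 with size factors added, and that of IPMDH1 to 0.52, 0.68 and 0.63. With single libraries left out, log2 fold changes in mock ranged from -0.14 to 0.91 for BCAT4, -0.30 to 0.46 for BCAT3, -0.13 to 0.74 for BAT5, -0.085 to 0.36 for IIL1, -0.20 to 1.42 for IPMI SSU2 and -0.57 to 0.68 for IPMDH1. In the WT response they ranged from -0.57 to 0.31 for BCAT3, -0.55 to 0.99 for MAM3, -0.074 to 0.37 for IIL1 and -0.12 to 1.28 for IPMDH1. The averaged response of BCAT3 ranged from -0.028 to 0.41, the averaged genotype difference of MAM1 from -0.33 to 0.064 and the difference of responses of MAM3 from -0.023 to 1.52. The depth behind the FPKM values is unknown, so the precision of levels under 1 FPKM, as for MAM3 in 4 WT libraries, could not be given.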
